A study of Mus musculus with 9 samples.

Results

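Transcripts of immunoglobulin variable segments were followed in the omentum of tumour-bearing mice 18 h after transfer of tumour-specific T cells. The members are the genes whose symbol begins with Ighv, Igkv or Iglv and whose counts add up to at least 30 over the 9 libraries. They number 143 of the 55359 genes in the count table, with 66 heavy chain (Ighv), 74 kappa (Igkv) and 3 lambda (Iglv) segments. Of 348 genes with such a symbol, 205 lay under the threshold and 134 of these had no count at all, and the 143 members held 98.985% of the counts of the 348. Just outside the threshold lay Ighv1-43 and Igkv4-69, with 29 counts each, and just inside it Ighv1-5, Ighv1-84 and Igkv4-78, with 30 counts each. The members were chosen by this summed count, so a segment could enter through 1 library or group alone, and the counts of members that differ between groups are given below as a description.

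All mice were C57BL/6, aged 7 to 10 weeks, and received 500000 B16-OVA cells into the peritoneal cavity on day 0. B16-OVA is a mouse melanoma line that makes ovalbumin, and the omentum is a fatty peritoneal fold with clusters of B cells, macrophages and other leukocytes known as milky spots. On day 6 the IP and IV groups were given OT-I cells, transgenic T cells specific for ovalbumin, after electroporation with mRNA for the cytokine IL-12, by the intraperitoneal (IP) or the intravenous (IV) route. The PBS group was given saline by a route that its labels do not state, no group was given T cells without IL-12 mRNA, and each group had 3 libraries (IP 2, IP 3 and IP 4, IV 1, IV 2 and IV 4, and PBS 1, PBS 2 and PBS 3), each labelled as 1 mouse.

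A developing B cell joins a variable segment to diversity and joining segments in the heavy chain locus, and to a joining segment in a kappa or lambda locus, and so settles which antibody that cell and all its descendants make. A bulk library therefore adds up the segment choice of every B cell and plasma cell in the tissue, weighted by how much immunoglobulin RNA each contains. The omentum and peritoneal cavity are known for B-1 cells, self-renewing B cells with a restricted repertoire. Many B-1 cells bind phosphatidylcholine through Ighv11-2 paired with Igkv14-126, or through Ighv12-3 paired with Igkv4-91. The remaining B cells, chiefly follicular B-2 cells, use many segments, each at a low share. In bulk RNA, fewer cells of a type and less RNA per cell cannot be told apart, and a segment count does not show which heavy and light chains were paired.

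The segments on which the results turn are printed below, 5′ to 3′, from the transcripts of GENCODE M21 on GRCm38, a build that differs from the mm39 named in the submitters' processing notes. Ighv segments lie on chromosome 12, Igkv on chromosome 6 and Iglv on chromosome 16. Capitals mark the last in-frame cysteine codon and the bases after it, where the third complementarity determining region, the part of the antibody most exposed to antigen, begins. The 4 segments of phosphatidylcholine-binding B-1 cells are given as the last 300 bases of the coding sequence.
Ighv11-2: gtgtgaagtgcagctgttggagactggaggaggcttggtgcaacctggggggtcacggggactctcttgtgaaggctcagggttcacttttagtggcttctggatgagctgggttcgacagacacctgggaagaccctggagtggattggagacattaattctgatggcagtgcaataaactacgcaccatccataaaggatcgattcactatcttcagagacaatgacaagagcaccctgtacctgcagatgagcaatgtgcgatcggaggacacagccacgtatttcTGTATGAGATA
Igkv14-126: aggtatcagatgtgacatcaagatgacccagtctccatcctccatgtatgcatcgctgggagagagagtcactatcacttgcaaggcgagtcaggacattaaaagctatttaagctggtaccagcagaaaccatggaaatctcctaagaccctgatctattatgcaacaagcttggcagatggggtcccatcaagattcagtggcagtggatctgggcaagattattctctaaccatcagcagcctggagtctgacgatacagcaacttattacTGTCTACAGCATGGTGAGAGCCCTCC
Ighv12-3: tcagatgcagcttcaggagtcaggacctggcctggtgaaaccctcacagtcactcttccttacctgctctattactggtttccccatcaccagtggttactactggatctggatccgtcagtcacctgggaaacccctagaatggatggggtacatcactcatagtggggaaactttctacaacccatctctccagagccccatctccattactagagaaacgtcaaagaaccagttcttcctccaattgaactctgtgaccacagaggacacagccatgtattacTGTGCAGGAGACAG
Igkv4-91: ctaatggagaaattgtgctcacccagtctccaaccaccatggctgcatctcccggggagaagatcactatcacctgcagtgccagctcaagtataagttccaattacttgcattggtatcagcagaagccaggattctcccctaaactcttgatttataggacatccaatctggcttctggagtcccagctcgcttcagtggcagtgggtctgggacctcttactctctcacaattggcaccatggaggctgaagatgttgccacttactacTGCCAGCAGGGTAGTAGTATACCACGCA
Of 3 further heavy segments, chosen because they led the Ighv locus in some libraries beside Ighv11-2 or stood out in 1 of them, the end of the coding sequence is given. Ighv7-1 is the heavy segment of the classical phosphorylcholine-binding antibodies.
Ighv1-11: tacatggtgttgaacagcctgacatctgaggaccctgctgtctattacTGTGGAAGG
Ighv7-1: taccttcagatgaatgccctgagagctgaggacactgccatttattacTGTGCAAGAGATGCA
Ighv1-22: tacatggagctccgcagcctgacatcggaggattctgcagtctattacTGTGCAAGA
Igkv5-39 took a large share of the kappa locus in 2 PBS libraries. Igkv6-15, Igkv8-27 and Igkv8-28 were among the kappa segments with the smallest p-values between IV and PBS.
Igkv5-39: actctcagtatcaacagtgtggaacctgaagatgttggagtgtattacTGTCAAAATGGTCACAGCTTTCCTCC
Igkv6-15: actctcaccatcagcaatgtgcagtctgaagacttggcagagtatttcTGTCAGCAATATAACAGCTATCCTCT
Igkv8-27: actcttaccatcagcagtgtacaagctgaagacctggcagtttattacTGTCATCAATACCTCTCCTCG
Igkv8-28: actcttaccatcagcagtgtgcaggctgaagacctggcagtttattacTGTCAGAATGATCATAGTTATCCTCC
The lambda segments Iglv1 and Iglv2 were 96.721% identical over their transcripts, and the capitals show how alike their last bases are.
Iglv1: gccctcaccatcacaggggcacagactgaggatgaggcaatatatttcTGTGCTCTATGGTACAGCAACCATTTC
Iglv2: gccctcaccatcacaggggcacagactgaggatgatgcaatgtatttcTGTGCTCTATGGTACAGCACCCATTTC

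The reads were 51 bases long at each end, so reads from near-identical segments can be split or dropped in counting. Over the members, a median of 77.852% of the 51-base stretches of a segment occurred in no other variable segment transcript, with a range of 2.589% to 100%. In 18 members the share was under 50%, and in 22 it was 100%. Igkv14-126 and Ighv12-3 were at 100%, Igkv4-91 at 95.13% and Ighv11-2 at 62.044%, since Ighv11-1 is 98.867% identical to it. Ighv11-1 had 3 counts in all libraries together, while Ighv11-2 had 5860. Igkv8-28 is 97.568% identical to Igkv8-19 and Igkv6-15 94.524% identical to Igkv6-23, so the values of these segments are uncertain where both had reads.

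Library totals were 25409924 to 32292732 counts in IP, 7379798 to 41146527 in IV and 25993996 to 44626843 in PBS, and IV 2 was the shallowest. The variable segments took 3901, 4856 and 11010 counts in IP 2, IP 3 and IP 4, 8816, 6086 and 16108 in IV 1, IV 2 and IV 4, and 5934, 3971 and 7810 in PBS 1, PBS 2 and PBS 3. Pancreatic acinar transcripts set 3 libraries apart: 17 acinar genes summed to 20755 CPM in IP 4, to 28297 in IV 1 and to 4938 in IV 2. In the other 6 libraries it was 11.9 to 274 CPM. CPM are counts per 1e+06 of the library total after scaling by the trimmed mean of M values (TMM). Median fold changes over the tested members are also given without those 3 libraries. Summed levels, shares, effective numbers and most single-segment results are not given with all 3 left out.

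Variable segment transcripts were most abundant after IV transfer. Summed over the 143 members, the level was 128, 206 and 371 CPM in IP, 321, 812 and 368 CPM in IV and 162, 152 and 159 CPM in PBS. The IV libraries all lay above the PBS libraries, while the IP libraries lay on both sides of PBS and overlapped IV. The PBS libraries lay close together, whereas IP 4 stood above the other IP libraries and IV 2 above the other IV libraries. The mean for IP was 235 ± 124 CPM, that for IV 500.1 ± 271 CPM and that for PBS 158 ± 4.88 CPM (SD, n = 3 each). On the log2 scale the ratio of means was 0.58 for IP over PBS, 1.66 for IV over PBS and -1.09 for IP over IV, with no test, because a sum over chosen members is not tested. Without IP 4 the ratio of IP over PBS was 0.08, and without IV 2 the ratios of IV over PBS and of IP over IV were 1.13 and -0.55. IV 4, in which acinar transcripts were as low as in PBS, still had 368 CPM, above every PBS library.

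The loci did not follow one another exactly. Heavy segments summed to 35.3, 57.3 and 109 CPM in IP, 61.0, 196 and 128 CPM in IV and 54.1, 42.8 and 55.6 CPM in PBS. Kappa segments summed to 85.6, 142 and 253 CPM in IP, 229, 588 and 222 CPM in IV and 104, 105 and 98.7 CPM in PBS. In both loci all IV libraries exceeded all PBS libraries, and IP overlapped both groups. Lambda segments summed to 7.47, 6.22 and 9.57 CPM in IP, 30.5, 27.7 and 17.6 CPM in IV and 4.07, 4.30 and 4.45 CPM in PBS. For lambda no 2 groups overlapped, with IV highest, IP between and PBS lowest. As a share of all light chain segment counts, lambda made up 8.03%, 4.20% and 3.65% in IP, 11.7%, 4.50% and 7.35% in IV and 3.77%, 3.92% and 4.31% in PBS, so the IV libraries exceeded the PBS libraries and IP overlapped both.

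**Figure D1:**
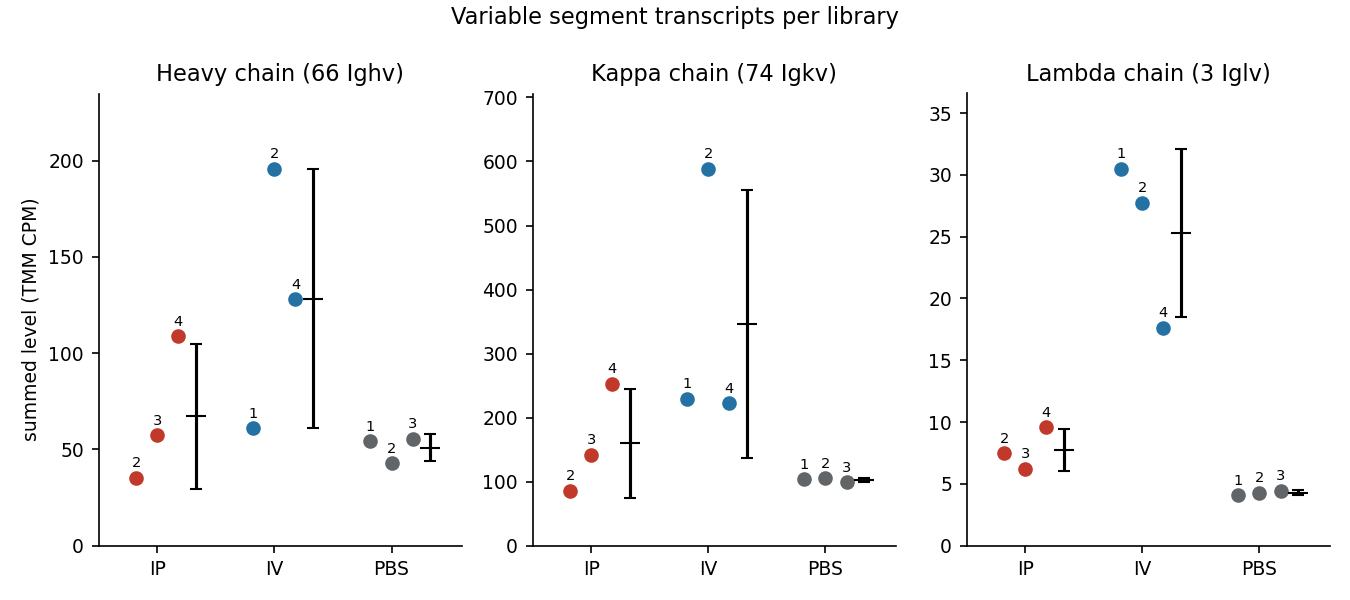
Summed TMM CPM of the Ighv, Igkv and Iglv members in each library (points, numbered by mouse), with the group mean and SD (n = 3) beside them, on axes that start at 0. IV lies above PBS in all 3 panels, at 61.0 to 196 against 42.8 to 55.6 CPM for Ighv, and only the Iglv panel has no overlap between IP and either of the other groups.

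By counts, a single heavy and a single kappa segment led their loci in every library, but per base of exon the heavy one led in 6 of 9. Ighv11-2, the heavy segment of the main phosphatidylcholine-binding B-1 specificity, held 30.9%, 50.2% and 29.1% of Ighv counts in IP, 17.9%, 11.2% and 26.1% in IV and 30.4%, 41.3% and 33.5% in PBS. Its share was lower in every IV library than in any IP or PBS library. Counting error alone gives 95% Wilson intervals of 47.6% to 52.9% for the highest share, in IP 3, and 9.67% to 12.9% for the lowest, in IV 2. Such intervals take reads as independent molecules, which libraries without molecular identifiers cannot show. Igkv14-126, its kappa partner, held 44.4%, 48.8% and 35.0% of Igkv counts in IP, 26.8%, 14.96% and 31.5% in IV and 35.1%, 53.2% and 37.3% in PBS. Here too each IV library lay below all others. Per base of exon, which removes the longer annotated transcript of Ighv11-2, its share was 25.9%, 44.2% and 24.4% in IP, 14.6%, 8.97% and 21.9% in IV and 25.7%, 35.3% and 28.5% in PBS. On that scale Ighv12-3 led in IP 4 with 29.6%, Ighv1-11 in IV 1 with 16.0% and Ighv7-1 in IV 2 with 10.9%, while Igkv14-126 led the kappa locus in all 9 libraries.

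The second B-1 pair ranked high in IP. Ighv12-3 held 10.2%, 13.4% and 27.0% of Ighv counts in IP, 3.58%, 1.30% and 5.90% in IV and 3.63%, 6.01% and 8.60% in PBS. Every IP library was above every other library, and IV and PBS overlapped. Igkv4-91, its kappa partner, held 12.1%, 13.7% and 29.4% of Igkv counts in IP, 3.87%, 2.68% and 7.69% in IV and 2.95%, 5.43% and 8.75% in PBS. Its rank in the kappa locus was 2 in all 3 IP libraries and in IV 4, 6 in IV 1, 10 in IV 2, and 5, 4 and 3 in PBS. Together the 4 B-1 segments made up 49.0%, 60.9% and 60.3% of all variable segment counts in IP, 26.0%, 15.8% and 34.8% in IV and 35.7%, 53.8% and 43.4% in PBS. IV lay below both other groups without overlap, and IP and PBS overlapped. The gap to PBS was narrow, 34.8% in IV 4 against 35.7% in PBS 1. For Igkv14-126 and Igkv4-91 alone, as a share of Igkv counts, IV and PBS overlapped, with 39.2% in IV 4 and 38.0% in PBS 1.

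**Figure D2:**
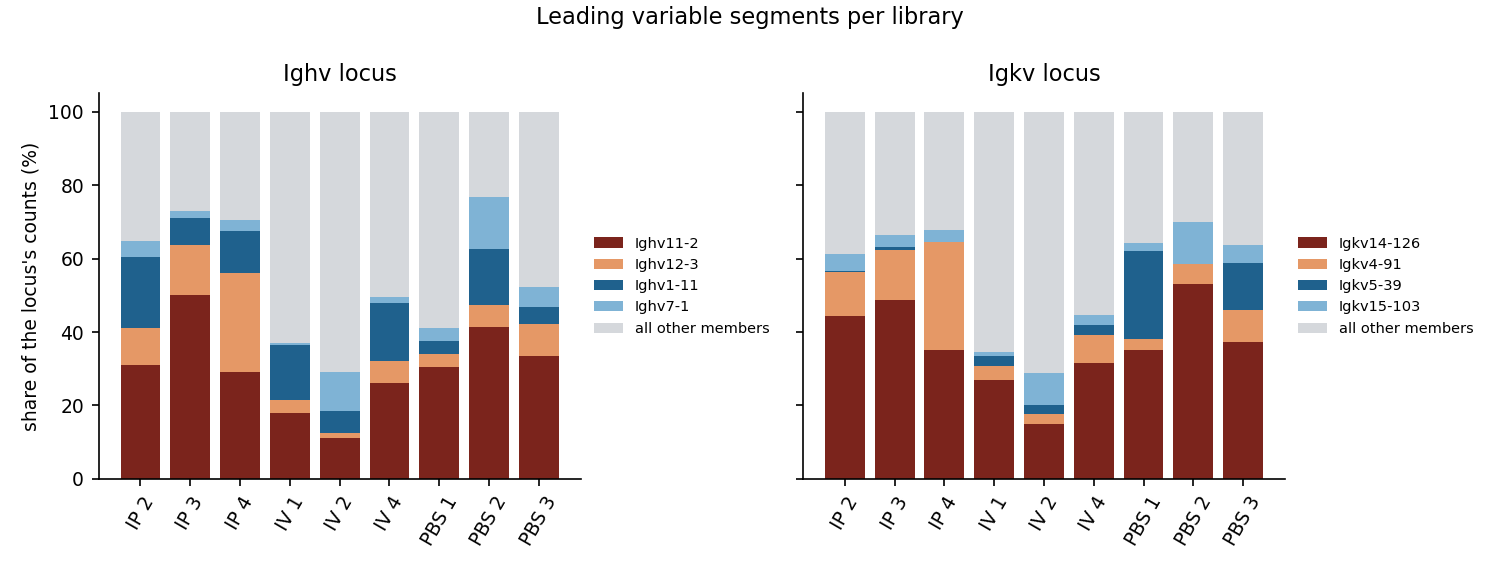
Share of the Ighv counts (left) and Igkv counts (right) of each library, in percent, taken by 4 segments per locus and by all other members. The dark red share of Ighv11-2 is 29.1% to 50.2% in IP, 11.2% to 26.1% in IV and 30.4% to 41.3% in PBS, and the grey remainder is largest in IV 1 and IV 2.

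Beside the B-1 segments, some leaders were shared by several libraries and others were not. Ighv1-11 was among the top 3 heavy segments in 6 libraries, with 19.4%, 7.31% and 11.5% of Ighv counts in IP 2, IP 3 and IP 4, 14.9% and 15.8% in IV 1 and IV 4, and 15.3% in PBS 2. Ighv7-1 was in the top 3 in IV 2 (10.7%), PBS 2 (14.1%) and PBS 3 (5.41%). Igkv5-39 followed Igkv14-126 in the kappa locus of PBS 1, at 24.0%, and of PBS 3, at 12.7%. Its level was 0.0329, 1.06 and 0.169 CPM in IP, 6.51, 14.7 and 6.09 CPM in IV and 25.0, 0.0384 and 12.5 CPM in PBS, so that PBS 2 resembled the IP libraries and not the other PBS libraries. Igkv8-16 was in the top 3 of 4 libraries, with 9.34% of Igkv counts in IP 2, 7.32% and 6.27% in IV 1 and IV 4, and 7.33% in PBS 2. Igkv15-103 took 8.61% in IV 2 and 11.4% in PBS 2, and Igkv12-89 took 11.0% in IP 4 and 7.94% in IV 1.

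Dominance was summarised by the inverse Simpson index, the number of equally used segments that would give the same evenness. For Ighv the effective number was 6.64, 3.58 and 5.61 in IP, 13.4, 19.8 and 9.58 in IV and 8.11, 4.54 and 7.55 in PBS. All IV libraries exceeded all IP and PBS libraries, and IP and PBS overlapped. For Igkv it was 4.43, 3.79 and 4.44 in IP, 10.02, 20.6 and 8.41 in IV and 5.31, 3.26 and 5.85 in PBS, with the same order of groups. The difference of Ighv means was -1.46 for IP minus PBS, 7.50 for IV minus PBS and -8.96 for IP minus IV, given without a test. Without IV 2 the differences of IV minus PBS and of IP minus IV were 4.73 and -6.19, and for IP minus PBS the value was -0.61 without IP 3 and -2.55 without PBS 2. Rarefied to an equal number of counts, the Ighv locus showed 49.2 to 55.0 segments in IP, 57.7 to 63.0 in IV and 49.6 to 57.9 in PBS, so the groups IV and PBS overlapped by this measure.

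**Figure D3:**
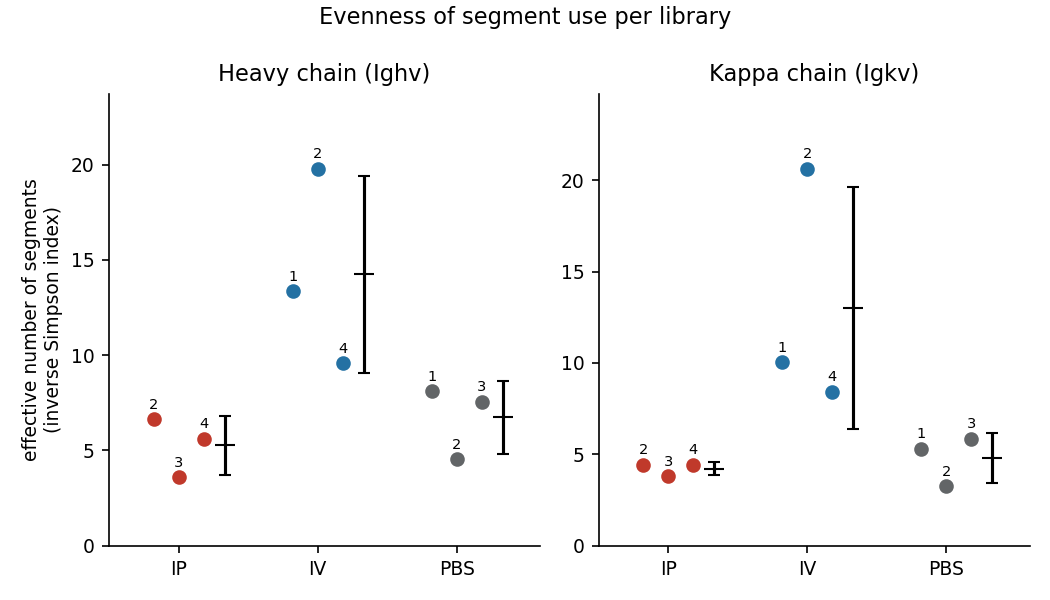
Effective number of segments (inverse Simpson index) of the Ighv and Igkv loci in each library (points, numbered by mouse), with group mean and SD (n = 3). In both loci the 3 IV libraries lie above all IP and PBS libraries, from 9.58 to 19.8 for Ighv and from 8.41 to 20.6 for Igkv.

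For the heavy chain the distance between IV and PBS shrank when the B-1 segments were left out. With Ighv11-2 and Ighv12-3 left out, the effective number of Ighv segments was 7.78, 14.6 and 9.43 in IP, 14.9, 20.2 and 14.1 in IV and 14.7, 5.97 and 25.8 in PBS. The PBS libraries then spanned the whole range, and the difference of IV minus PBS was 0.90, while IP minus PBS was -4.92. For the kappa chain the order of IV and PBS did not depend on them: without Igkv14-126 and Igkv4-91 the values were 13.6, 18.9 and 7.82 in IP, 18.3, 26.7 and 26.8 in IV and 5.96, 8.21 and 12.2 in PBS. All IV libraries then still exceeded all PBS libraries, and IP overlapped both groups.

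The level of the B-1 segments and that of the rest of the repertoire moved unequally. The 4 B-1 segments together summed to 62.9, 125 and 224 CPM in IP, 83.5, 128 and 128 CPM in IV and 57.9, 82.0 and 68.9 CPM in PBS. IV lay just above PBS, and IP overlapped both. The other 139 members summed to 65.6, 80.4 and 147 CPM in IP, 237, 684 and 240 CPM in IV and 104, 70.5 and 89.9 CPM in PBS. Every IV library was above every IP and PBS library, and IP and PBS overlapped. The ratio of mean levels on the log2 scale was 0.98, 0.70 and 0.28 for the B-1 segments in IP over PBS, IV over PBS and IP over IV, and 0.15, 2.13 and -1.99 for the others.

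Single-gene tests were read from an edgeR quasi-likelihood fit over 17123 genes, with p-values adjusted over all of them and a threshold of 0.05. Of the 143 members, 103 passed the filter on low counts, and 40 (23 Ighv and 17 Igkv) were not tested. Passing the filter can itself depend on the group in which a segment is high. Ighv11-2, at 23.8 ± 11.2 CPM on average in IP and 17.6 ± 1.07 CPM in PBS, did not pass (log2 fold change 0.44 ± 0.41 SE, edgeR adjusted p = 0.461). It had 10.9, 28.8 and 31.7 CPM in IP, 11.0, 21.9 and 33.4 CPM in IV and 16.5, 17.7 and 18.6 CPM in PBS, and all groups overlapped. Igkv14-126 had 38.0, 69.3 and 88.5 CPM in IP, 61.5, 88.0 and 69.9 CPM in IV and 36.4, 56.0 and 36.9 CPM in PBS. All IV libraries exceeded PBS, but the difference did not pass (0.76, edgeR adjusted p = 0.0968), nor did IP against PBS (0.60, edgeR adjusted p = 0.136).

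Ighv12-3 had 3.59, 7.71 and 29.4 CPM in IP, 2.18, 2.53 and 7.56 CPM in IV and 1.97, 2.57 and 4.78 CPM in PBS. IP 4 was far above all others, and the difference between IP and PBS did not pass (2.12, edgeR adjusted p = 0.0638, between 0.0193 and 0.341 under other settings). Igkv4-91 had 10.3, 19.4 and 74.3 CPM in IP, 8.88, 15.7 and 17.1 CPM in IV and 3.06, 5.72 and 8.64 CPM in PBS. Both treated groups lay above PBS without overlap. Igkv4-91 was the only B-1 segment that passed a test, at 2.57 ± 0.72 for IP against PBS (edgeR adjusted p = 0.0243). The call was lost in 9 of 19 alternatives. Among them were the removal of IP 4 (1.35, edgeR adjusted p = 0.0506) and that of IV 4, PBS 1 or PBS 2 (up to 0.106). For IV against PBS Igkv4-91 did not pass (1.25, edgeR adjusted p = 0.273).

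Between IP and PBS few segments differed. Of the 103 tested members, 7 were higher in IP (5 Igkv and 2 Iglv) and 1 was lower, while over all tested genes 18.7% were higher and 14.2% lower, 32.9% in all. Neither count was above the share of all genes, and the members' median log2 fold change was 0.10, beside 0.02 over all genes. Over all 143 members the IP mean lay above the PBS mean in 67 and below it in 75. With no filter on low counts, so that all 143 were tested, 3 were higher and 0 lower, beside 8.05% and 7.22% of all genes. In the fits without IP 4, PBS 1, PBS 2 or PBS 3, 2561 of 17564, 2354 of 17621, 2794 of 17788 and 2922 of 17620 genes were higher. The number of members higher was 2 of 127 tested without IP 4 and 2 of 123 without PBS 1. It was 4 of 128 without PBS 2 and 4 of 123 without PBS 3. Without IP 4, IV 1 and IV 2, the libraries with acinar transcripts, the median log2 fold change over members was -0.35, beside -0.03 over all genes.

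Iglv2, a lambda segment, led the calls and had 1.09, 1.10 and 1.69 CPM in IP against 0.519, 0.537 and 0.528 CPM in PBS. The groups were clear of each other, and the log2 fold change was 1.29 ± 0.30 (edgeR adjusted p = 0.00685, and 0.401 with all libraries thinned to the depth of IV 2). Igkv4-50 had 0.790, 0.889 and 0.876 CPM in IP against 0.218, 0 and 0.102 CPM in PBS (2.87 ± 0.72, edgeR adjusted p = 0.0107). Its call held in all 17 alternatives run for it, the highest edgeR adjusted p being 0.0448. Iglv1 had 5.99, 4.91 and 7.31 CPM in IP against 2.84, 3.45 and 3.35 CPM in PBS (0.92 ± 0.28, edgeR adjusted p = 0.0291), again without overlap. That call was lost in 8 of 19 alternatives. Among them were the removal of IP 2, IP 4 or any 1 PBS library (edgeR adjusted p up to 0.113).

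The other kappa calls rested on few libraries. Igkv12-89 had 1.35, 6.73 and 27.7 CPM in IP against 1.53, 0.345 and 1.48 CPM in PBS (3.37 ± 1.07, edgeR adjusted p = 0.0424). IP 2 lay within the PBS range, and without IP 4 the value was 1.80 (edgeR adjusted p = 0.127). The call was lost in 12 of 19 alternatives, which also included the removal of IP 3, IV 1, IV 4 or any 1 PBS library. Igkv8-19 had 1.15, 0.0847 and 2.66 CPM in IP against 0, 0.115 and 0.203 CPM in PBS (3.51 ± 1.05, edgeR adjusted p = 0.0257). IP 3 lay within the PBS range, and the call was lost in 9 of 17 alternatives. Among them were the removal of IP 4 (2.47, edgeR adjusted p = 0.128), IP 2, PBS 1 or PBS 2. Igkv5-43 (2.30 ± 0.80, edgeR adjusted p = 0.0487) lost its call in 13 of 18 alternatives, among them the removal of IP 4 (1.04), IP 3, IV 4 or any 1 PBS library. The lower call was Ighv1-75, a heavy segment at 0.0988, 0.0423 and 0.0337 CPM in IP against 0.246, 0.154 and 0.264 CPM in PBS. These levels did not overlap (-1.86 ± 0.63, edgeR adjusted p = 0.0444), but the call was lost in 13 of 16 alternatives, among them the removal of any 1 library other than PBS 2. The lower calls numbered 0 without IP 2, IP 4 or PBS 1 (127, 127 and 123 members tested). They numbered 2 without IV 2 or IV 4 (112 and 109 tested) and 5 without PBS 2 (128 tested). Over all genes 1602, 1713, 1602, 2536, 2947 and 2300 were lower in those fits, in the same order.

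Between IV and PBS the differences ran in 1 direction. Of the 103 tested members, 36 were higher in IV (8 Ighv, 25 Igkv and 3 Iglv) and 0 were lower, while over all tested genes 10.4% were higher and 5.66% lower, 16.1% in all. Before adjustment 57 had an edgeR p under 0.05 upwards and 0 downwards, and the number over all genes at that p was not counted. DESeq2 called 51 of the 103 higher and 0 lower, beside 2217 higher and 1766 lower of all 17123 genes. The median log2 fold change of the 103 was 1.91, beside 0.04 over all genes, and the IV mean exceeded the PBS mean in 134 of all 143 members. With no filter 32 of 143 were higher and 0 lower, beside 4.07% and 2.42% of all genes. The number higher was 13 of 112 tested without IV 2, 12 of 123 without PBS 1 and 16 of 128 without PBS 2. Over all genes 989 of 17544, 770 of 17621 and 1033 of 17788 were higher in those fits, beside 1784 of 17123 in the main fit. With IP 4, IV 1 and IV 2 all left out, IV 4 is the only IV library, so no count of calls is given. The median log2 fold change over members was then 1.70, beside -0.02 over all genes. That fit takes the spread of IV 4 to be that of the other groups.

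All 3 lambda segments were higher in IV than in PBS. Iglv2 had 5.06, 6.14 and 4.38 CPM in IV against 0.519, 0.537 and 0.528 CPM in PBS (3.27 ± 0.30, edgeR adjusted p = 0.00182). Iglv1 had 24.4, 19.2 and 11.0 CPM in IV against 2.84, 3.45 and 3.35 CPM in PBS (2.49 ± 0.29, edgeR adjusted p = 0.00182). Both calls were lost only with IP 4, IV 1 and IV 2 left out together (edgeR adjusted p = 0.0758), among the alternatives run. Iglv3 had 1.02, 2.40 and 2.28 CPM in IV against 0.710, 0.307 and 0.569 CPM in PBS (1.79, edgeR adjusted p = 0.0326). The Iglv3 groups did not overlap either, but the call was lost in 10 of 17 alternatives. Among them were the removal of IP 2, IV 2, IV 4 or any 1 PBS library (edgeR adjusted p up to 0.0923).

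Kappa segments made up most of the other calls. Igkv8-28 had 7.20, 10.4 and 2.51 CPM in IV against 0.137, 0.499 and 0.122 CPM in PBS (4.79 ± 0.70, edgeR adjusted p = 0.0029). Igkv6-15 had 7.17, 5.07 and 3.58 CPM in IV against 0.273, 0.653 and 0.569 CPM in PBS (3.40 ± 0.51, edgeR adjusted p = 0.00297). Igkv8-27 had 7.97, 24.8 and 1.67 CPM in IV against 0.164, 0.192 and 0.264 CPM in PBS (5.69 ± 0.90, edgeR adjusted p = 0.00362). In all 3 the lowest IV library, IV 4, was above the highest PBS library. Igkv12-46, Igkv4-57-1, Igkv4-57 and Igkv6-32 were higher by 3.04, 2.92, 3.28 and 2.39, and the call of Igkv6-32 was lost without PBS 2 (edgeR adjusted p = 0.0501). Among the heavy segments Ighv1-42 had the smallest p, with 0.582, 3.60 and 0.913 CPM in IV against 0.0273, 0 and 0.0813 CPM in PBS (5.04 ± 1.02, edgeR adjusted p = 0.0139, and 0.0675 without PBS 1). Ighv1-11, the segment that ranked beside Ighv11-2 in many libraries, had 9.10, 11.6 and 20.2 CPM in IV against 1.94, 6.56 and 2.68 CPM in PBS (1.90 ± 0.52, edgeR adjusted p = 0.0318).

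**Figure D4:**
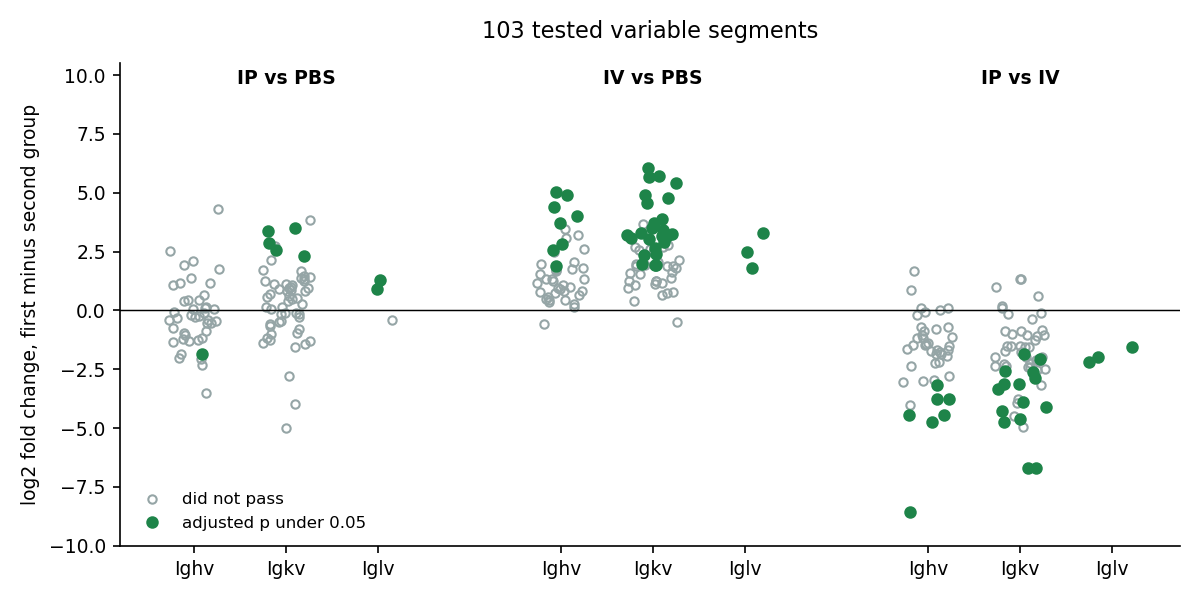
Log2 fold change of the 103 tested members in the 3 comparisons, by locus, first-named group minus second; filled points passed an edgeR adjusted p of 0.05. For IV minus PBS 36 filled points lie above 0 and 0 below, for IP minus IV 25 lie below 0 and 0 above, and for IP minus PBS 7 lie above and 1 below. IV and PBS each enter 2 of the comparisons, as does IP.

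Set against each other directly, the routes differed at 25 segments. Of the 103 tested members, 0 were higher in IP and 25 lower (7 Ighv, 15 Igkv and 3 Iglv), while over all tested genes 5.93% were higher and 4.47% lower in IP, 10.4% in all. Before adjustment 0 had an edgeR p under 0.05 upwards and 50 downwards, again without a count over all genes. DESeq2 called 0 of the 103 higher and 43 lower, beside 1517 higher and 1248 lower of all 17123 genes. The median log2 fold change was -1.86, beside -0.02 over all genes, and the IP mean lay below the IV mean in 131 of all 143 members. With no filter 0 of 143 were higher and 27 lower, beside 2.42% and 2.39% of all genes. The number lower was 8, 12 and 15 of 127 tested without IP 2, IP 3 and IP 4. It was 42 of 122 without IV 1 and 15 of 112 without IV 2. Over all genes 238 of 17662, 294 of 17764, 421 of 17564, 716 of 17686 and 537 of 17544 were lower in those fits. Without IP 4, IV 1 and IV 2, which leaves 1 IV library, the median log2 fold change over members was -2.04.

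Iglv2 again had the smallest p, at 1.09, 1.10 and 1.69 CPM in IP against 5.06, 6.14 and 4.38 CPM in IV (-1.99 ± 0.28, edgeR adjusted p = 0.00209). Igkv6-15 had 0.198, 0.550 and 0.809 CPM in IP against 7.17, 5.07 and 3.58 CPM in IV (-3.34 ± 0.51, edgeR adjusted p = 0.00311). Both calls held in all 18 alternatives run for each. Igkv8-28 had 0.329, 0.635 and 0.202 CPM in IP against 7.20, 10.4 and 2.51 CPM in IV (-4.09 ± 0.68, edgeR adjusted p = 0.00438). Ighv1-80, among the top 3 heavy segments of IV 1 and IV 2, had 0.329, 0.0847 and 0.573 CPM in IP against 4.66, 17.5 and 1.07 CPM in IV (-4.43 ± 0.99, edgeR adjusted p = 0.0176). Ighv1-42 had no count in any IP library and 16, 27 and 40 counts in IV. With 3 counts over the IP group taken as its upper limit, its IP level was at least 47.4-fold below the mean IV level. That mean leans on IV 2, at 3.60 CPM, and the fold does not hold for IV 1 or IV 4, at 0.582 and 0.913 CPM. With 1, 0 and 4 counts in PBS, Ighv1-42 became a member through its IV counts. The groups did not overlap for any of these 5 segments. Of these 5, Iglv2 is the only one also called between IP and PBS. The comparisons share libraries, so they are not independent of each other.

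Several kappa segments were read almost wholly in 1 group or library. Igkv1-99, singled out after its values were seen, had 69, 60 and 11 counts (2.51, 8.004 and 0.251 CPM) in IV and 0 in all IP and PBS libraries. It did not pass the filter, and it became a member through its IV counts alone. With the same limit of 3 counts over a group, its mean IV level was at least 100.1-fold above IP and at least 134-fold above PBS. That mean rests on IV 1 and IV 2, and these folds do not hold for IV 4, at 0.251 CPM. Igkv1-122 had 3, 200 and 3 counts in IV, 0 in every IP library and 2, 0 and 1 in PBS, so that IV 2 alone held 4.53% of its Igkv counts in this segment. Igkv3-4 had 0.0988, 0.127 and 0.0674 CPM in IP, 15.1, 16.0 and 0.502 CPM in IV and 0.492, 0 and 0.0813 CPM in PBS, and took 6.59% of Igkv counts in IV 1.

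A segment was taken to stand out in a library where it held at least 2% of its locus and at least 5 times its median share in the other 8 libraries. By this rule 1, 0 and 2 segments stood out in IP 2, IP 3 and IP 4, 11, 11 and 1 in IV 1, IV 2 and IV 4, and 6, 1 and 5 in PBS 1, PBS 2 and PBS 3. Such segments were found in PBS as well as in treated mice. In PBS 1, Ighv1-22 took 13.6% of the heavy counts, and its level was 0.0659, 0.0847 and 2.76 CPM in IP, 0.982, 6.94 and 2.05 CPM in IV and 7.37, 0.0768 and 0.142 CPM in PBS. IV 2 thus came close to PBS 1 in level, at 3.54% of its heavy counts. In PBS 1, Ighv3-1 took 4.59%, with 91 counts there and 47 in PBS 3, against 0 to 2 in IP and 1 to 12 in IV. Igkv12-89 in IP 4, with 823 counts, stood out in the IP group, as did Ighv1-66 there, at 2.01% of heavy counts.

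Constant region genes varied in the same libraries. The class-switched Ighg2c had 1.12, 0.720 and 0.775 CPM in IP, 21.3, 46.8 and 5.80 CPM in IV and 31.2, 2.495 and 2.42 CPM in PBS. It was higher in IV 1, IV 2 and PBS 1 than in the other 6 libraries, and these 3 also had the most segments that stood out. IV 1 and IV 2 are also among the 3 libraries with acinar transcripts, while PBS 1 is not. PBS 3, with 5 such segments beside 6 in PBS 1, had 2.42 CPM of Ighg2c. Ighg3, another IgG subclass, had 20.3, 8.003 and 13.5 CPM in IP, 12.6, 34.2 and 24.2 CPM in IV and 5.49, 59.2 and 3.56 CPM in PBS, with PBS 2 highest. Whether these transcripts came from the same cells as the segments that stood out was not tested.

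**Figure D5:**
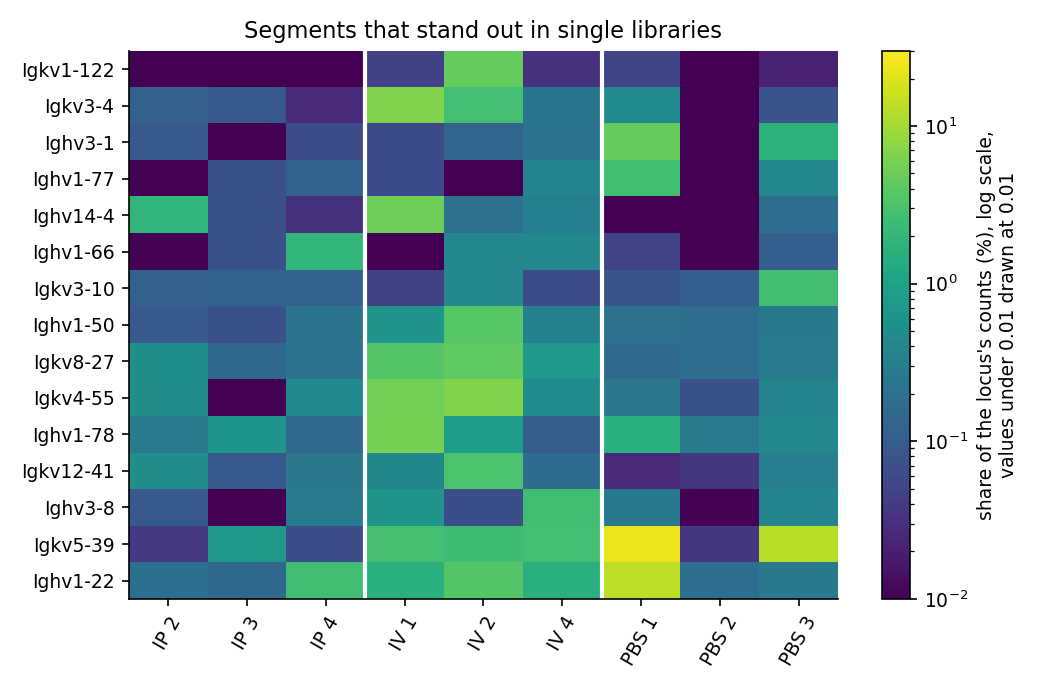
Share of the locus's counts in each library, in percent on a logarithmic colour scale, for the 15 segments that stood out most; shares under 0.01% are drawn at 0.01%. White lines part IP, IV and PBS. Bright cells sit mostly in IV 1, IV 2 and PBS 1, the brightest being Igkv5-39 at 24.0% in PBS 1.

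Segment profiles differed between any 2 mice. Bray-Curtis dissimilarity, which is 0 for equal shares and 1 for none in common, had a median of 0.335 within IP, 0.459 within IV and 0.329 within PBS for the Ighv locus. Between groups its median was 0.369 for IP with PBS, 0.471 for IV with PBS and 0.457 for IP with IV. The distances between mice of different groups thus overlapped those between mice of 1 group. Without the B-1 segments, the within-group medians were 0.384 in IP, 0.488 in IV and 0.507 in PBS, and those between groups were 0.458, 0.495 and 0.460 in the same order of pairs.

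By family, the members of Ighv1, the largest heavy family with 36 members, took 38.3%, 20.9% and 31.2% of Ighv counts in IP, 52.3%, 52.1% and 42.8% in IV and 42.3%, 26.5% and 27.0% in PBS. Each IV library exceeded every IP and PBS library. The Igkv4 family, with 19 members including Igkv4-91, took 19.3%, 19.6% and 32.8% of Igkv counts in IP, 15.7%, 18.7% and 15.3% in IV and 8.57%, 7.62% and 13.4% in PBS. The Igkv8 family took 13.0%, 4.35% and 6.27% in IP, 15.6%, 12.1% and 11.4% in IV and 3.63%, 9.04% and 4.01% in PBS. For Igkv4 both treated groups lay above PBS, whereas for Igkv8 IP overlapped both other groups. Igkv4-91 alone held 314 of 503, 458 of 657 and 2204 of 2462 Igkv4 counts in IP. It held 244 of 988, 118 of 825 and 748 of 1488 in IV and 112 of 326, 149 of 209 and 425 of 651 in PBS. Most of the Igkv4 counts in IP thus came from this 1 segment and not from the family at large.

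The ratio of kappa to heavy counts within each B-1 pair did not stay at a fixed value. Igkv14-126 had 3.48, 2.41 and 2.79 times the counts of Ighv11-2 in IP, 5.61, 4.02 and 2.09 times in IV and 2.21, 3.17 and 1.98 times in PBS. Igkv4-91 had 2.88, 2.52 and 2.52 times the counts of Ighv12-3 in IP, 4.07, 6.21 and 2.26 times in IV and 1.56, 2.22 and 1.81 times in PBS. Both treated groups exceeded PBS for the pair of Ighv12-3, and all groups overlapped for the pair of Ighv11-2. For IV that margin was narrow, 2.26 in IV 4 against 2.22 in PBS 2, where the pair had 149 and 67 counts. The ratios of this pair in IV 1 and IV 2 rest on 60 and 19 counts of Ighv12-3.

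Other immunoglobulin and B cell genes give the setting of these values. Ighm, the IgM constant region, had 406, 535 and 918 CPM in IP, 982, 2372 and 802 CPM in IV and 322, 347 and 341 CPM in PBS. Of 12 tested constant region and joining chain genes, 0 were higher in IP than in PBS (edgeR), 9 were higher in IV than in PBS, and 5 were lower in IP than in IV. Ighd, which naive follicular B cells co-express with Ighm and B-1 cells carry at a low level, had 1.90, 0.681 and 0.892 counts per 100 of Ighm in IP, 2.26, 4.63 and 4.28 in IV and 2.39, 2.80 and 3.46 in PBS. IP lay below both other groups. Of 17 B cell genes, 0 were higher and 2 lower in IP than in PBS, 16 were higher in IV than in PBS, and 16 were lower in IP than in IV. Their summed level was 143, 96.6 and 140 CPM in IP, 261, 855 and 383 CPM in IV and 123, 139 and 155 CPM in PBS. IV 2 had the highest summed level of both the B cell genes and the variable segments. The part of B cell number in the segment levels was not tested.

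Of 13 tested plasma cell genes, 7 were higher in IP and 5 higher and 1 lower in IV, each against PBS, and 3 were higher in IP than in IV. Their sums were 1005, 1030 and 1009 CPM in IP, 824, 787 and 682 CPM in IV and 603, 719 and 615 CPM in PBS, an order unlike that of the segments. The list holds regulators that activated lymphocytes and other secretory cells also express. Of 7 tested germinal centre genes, 3 were higher and 1 lower in IP, and 2 were higher and 1 lower in IV, against PBS, with 2 higher in IP than in IV. Of 9 T cell genes, 6 were higher in IP and 7 in IV than in PBS, and 1 was lower in IP than in IV. Of 16 tested acinar genes 0 passed in edgeR in any comparison, although the median log2 fold change was 10.69 for IP over PBS and 11.82 for IV over PBS, since the 3 libraries named above held nearly all their counts. Of 5 adipocyte genes 0 passed against PBS and 1 was lower in IP than in IV, and of 5 melanoma genes 4 were lower in IP and 3 in IV than in PBS, and 2 in IP than in IV.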

How the data were processed

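Poly(A) RNA of the omentum was sequenced from directional libraries, per the labels' protocols, as read pairs of 51 bases. The submitters' processing notes name the mm39 build, STAR 2.7.9, featureCounts and limma. For annotation release and strand option, values were not given in the sources used here. Raw counts of 55359 genes were deposited by the authors, 1 column a library. A deposited table of log2 CPM by the authors, for 18833 genes, equals log2((count + 0.5) / (total + 1) × 1e+06) to within 5.0e-14 and served only as an alternative. Symbols, exon lengths and sequences came from GENCODE M21 on GRCm38, which named 52083 of the genes, so no coordinates are printed.

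Libraries were grouped by the labelled treatment. edgeR 4.0.16 in R 4.3.3 was run on the counts of all 9 libraries (filterByExpr, TMM, robust quasi-likelihood fit, two-sided, Benjamini-Hochberg adjustment over 17123 genes). Each fold change is log2 of the first group over the second. An SE equals the size of the log2 fold change over √F. With 3 mice a group, p-values reflect the spread from mouse to mouse, and the number limits what can be called. Shares and the inverse Simpson index were computed from raw counts within a locus, and sums over members were not tested. The members, the 8 gene lists and the tests were chosen with earlier results of these data known. Segments named are the top 3 per library and locus, up to 10 per comparison and direction past the threshold, all Iglv members, the 4 B-1 segments and those that stood out in 1 library, and further ones are said to be chosen after their values were seen. The script was tested on simulated counts. Alternatives included DESeq2 1.42.0, limma 3.58.1, other filters and scalings, each library left out and the replicate number as a block. No 2 libraries of the same group agreed within sampling noise (smallest chi-square per degree of freedom 7.09, IP 2 with IP 3). Pairs of libraries from different groups were not checked.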

Additional observations from a re-analysis of the deposited data

Results flagged for a closer look

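The effects of the routes, both measured against PBS, differed at the lambda segments by the test of IP against IV in edgeR. The log2 fold change of IP minus IV was -1.99 for Iglv2, -1.58 for Iglv1 and -2.22 for Iglv3, with edgeR adjusted p-values of 0.00209, 0.00634 and 0.0209, and the 3 IP libraries lay below the 3 IV libraries for each. The call of Iglv3 was lost in 5 of 17 alternatives, that of Iglv1 in 1 of 19 and that of Iglv2 in 0 of 18. For Iglv3 they included the removal of IP 2, IP 3 or IV 2 (edgeR adjusted p up to 0.0943).

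The routes also differed at kappa segments, by -3.34 for Igkv6-15, -4.09 for Igkv8-28, -4.74 for Igkv8-27, -3.13 for Igkv12-46, -2.89 for Igkv6-32 and -4.63 for Igkv6-23. The edgeR adjusted p-values ran from 0.00311 for Igkv6-15 to 0.0109 for Igkv6-23, and the groups did not overlap for any of the 6. The call of Igkv6-23 was lost without IP 2 or IP 3 and that of Igkv6-32 without IP 2. Over all the alternatives run, Igkv8-27 lost its call in 4 of 18, and Igkv6-23 and Igkv6-32 in 2 of 17 each. Igkv8-28 and Igkv12-46 lost theirs in 1 of 18 each, and Igkv6-15 in 0 of 18.

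Among heavy segments the routes differed by -3.17 for Ighv1-75 (edgeR adjusted p = 0.00959, and 0.0560 without IP 3) and by a fitted -8.55 for Ighv1-42 (edgeR adjusted p = 0.0102). Of 17 alternatives run for each, Ighv1-75 lost its call in 4 and Ighv1-42 in 1. Ighv1-42 had no count in IP, so the size of its fitted value depends on the prior count of the fit.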

How the results depend on the processing

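Of the 42 single-segment results followed through the alternatives, 0 of those called changed direction, while 7 that were not called took both signs. Between IP and PBS the 7 higher members became 2 of 103 tested with limma voom and 4 of 126 with limma on the deposited log2 CPM. They became 3 of 143 with no filter and 3 of 10 with at least 5 CPM in 3 libraries. After thinning every library to the total of IV 2 they were 4 of 42. Over all genes 3345 of 17123, 2587 of 18833, 2649 of 32922, 2440 of 11687 and 2663 of 13942 were higher, in the same order. The 1 lower member became 3 with the DESeq2 Wald test, 2 with limma on log2 CPM, and 0 with limma voom, no filter, or only the 2 groups compared. Over all genes 2950 of 17123, 3488 of 18833, 2489 of 17123, 2376 of 32922 and 3088 of 16397 were lower, in the same order. Between IV and PBS the 36 higher members became 20 with limma voom (103 members tested), 4 with at least 5 CPM (10 tested) and 12 thinned (42 tested). Over all genes 1578 of 17123, 1450 of 11687 and 1553 of 13942 were higher, in the same order. Between IP and IV the 25 lower members became 43 with DESeq2, 1 with at least 5 CPM, 10 thinned and 7 without those 3 libraries. With 1 library left out, the members called ranged from 2 to 9 higher and 0 to 5 lower (IP and PBS), from 12 to 50 higher and 0 to 1 lower (IV and PBS), and from 8 to 42 lower (IP and IV), and the log2 ratio of the summed level of IV over PBS from 1.13 to 1.90. The 9 came without IP 2, with 2437 of 17662 genes higher, and the 50 without IV 1, with 1624 of 17686 genes higher. The difference in the effective number of Ighv segments for IP minus PBS was -4.60 with the exponential of Shannon entropy, -7.03 without the largest segment of each library and -4.92 without Ighv11-2 and Ighv12-3. For IV minus PBS it was 2.43 and 0.90 with these segments left out, and for IP minus IV -15.04 with Shannon entropy. The causes of these shifts were not tested. The calls over all genes changed with the setting as well, so these member counts are not to be read against the shares of the main fit. The settings on acinar libraries, thinning, length and the 2 B-1 heavy segments were chosen after seeing the data. With the replicate block the higher members numbered 23 for IV and PBS, beside 1473 of 17123 genes. The numbers did not pair the samples: the correlation of deviations of same-numbered libraries was 0.121 and -0.0537 for IP with PBS, 0.0191 and 0.159 for IV with PBS, and -0.14 and -0.473 for IP with IV.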
